A study of Homo sapiens with 12 samples.

Results

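The classical cadherins and the catenins that bind their tails were followed in RNA-seq of 2 pancreatic adenocarcinoma lines sorted with the GCTM-5 antibody, which recognises a large sialylated glycoprotein complex on the cell surface. Of the 23346 genes in the deposited table, 8 were taken by their symbols, namely the cadherins *CDH1*, *CDH2*, *CDH3*, *CDH4* and *CDH11* and the catenins *CTNNA1*, *CTNNB1* and *CTNND1*. SW1990 and CFPAC-1, both established human lines, were each separated into strongly stained (positive) and unstained (negative) cells, with cells between the gates left out. Each of the 4 groups held 3 samples from repeated sorts, 12 in all, and the labels name no other treatment. Nothing in the labels says that the sorts came from separate cultures, so p-values measure the spread between sorts of 1 line each. Both lines were sorted from the parent population, which was mixed for the antigen, and not from cloned sublines.

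Cadherins are transmembrane proteins that join neighbouring cells by binding cadherins of the same kind in the presence of calcium. Inside the cell, β-catenin (*CTNNB1*) and p120-catenin (*CTNND1*) bind the cadherin tail, and α-catenin (*CTNNA1*) ties β-catenin to actin filaments, which together make the adherens junction. β-catenin that is not held at the junction can enter the nucleus as a partner of TCF and LEF factors in Wnt signalling. E-cadherin (*CDH1*) is the cadherin of most epithelia, including the pancreatic duct, and loss of E-cadherin with gain of N-cadherin (*CDH2*) is the textbook cadherin switch of epithelial to mesenchymal transition.

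Library totals, recovered from the RPKM values (reads scaled to gene length and library size), had their lowest and highest values in positive CFPAC-1, 9969697 for replicate 3 and 26159330 for replicate 1, and all 8 genes passed the filter on low values (0.1 RPKM on average). The label of epithelial carcinoma cells was checked with 8 epithelial markers, all of which had a mean RPKM of at least 1 in every group. Their summed RPKM was 1668 to 1985 in negative and 4873 to 5197 in positive SW1990, 6794 to 7782 in negative CFPAC-1 and 7413 to 9124 in positive CFPAC-1. The 9 fibroblast markers summed to 12.8 to 22.7 RPKM in negative and 3.90 to 4.88 in positive SW1990, and to at most 2.40 in CFPAC-1. Most of the sum in negative SW1990 was *LUM*, with a mean of 13.2 RPKM against 2.43 in positive cells. *COL1A1* averaged 3.57 against 1.93 and *PDGFRB* 1.76 against 0.0381. *THY1* was at 0 in all samples, and *COL3A1* and *DCN* were at 0 in positive SW1990 and in CFPAC-1. The 5 endothelial markers summed to 14.9 to 18.9 RPKM in negative SW1990 and to at most 2.05 in the other groups, and nearly all of the former was *CDH5*, itself a cadherin. The 5 haematopoietic markers summed to 1.10 to 3.20 RPKM in SW1990 and 52.3 to 86.5 in CFPAC-1, with *PTPRC* at 0 in negative CFPAC-1. Most of the CFPAC-1 sum was *LYZ*, with a mean of 64.1 RPKM in negative and 56.6 in positive cells. *CD14* averaged 9.23 RPKM in negative and 3.19 in positive CFPAC-1. These marker levels moved with several of the changes below, and their part in those changes was not tested. In sorted bulk samples, fewer cells expressing a gene and less RNA per cell cannot be told apart.

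The genes were compared between positive and negative cells in each line, and between lines, with limma on log2(RPKM + 0.1), so a fold change understates the change of genes with low RPKM. Calls were made where the p-value, adjusted by Benjamini-Hochberg over all 16236 genes fitted, was under 0.05. In SW1990, 7 of the 8 genes were called, against 28.2% of all fitted genes. In that line 4 of them were higher in positive cells (11.3% of all genes) and 3 were lower (16.9%). In CFPAC-1, 2 of the 7 genes with reads were called, near the 36.5% of all genes. None was called higher in positive CFPAC-1 cells (22.3% of all genes), and *CDH2* and *CTNNB1* were called lower (14.2%). The change differed between lines for 4 of 8 genes, *CDH1*, *CDH2*, *CDH3* and *CTNND1*, against 26.9% of all genes. Between lines, 7 of the 8 differed in negative cells, against 68.9% of all genes, and 5 of the 8 in positive cells, against 62.3%. Nothing in the labels ties the sorts of SW1990 to those of CFPAC-1, so line and batch cannot be told apart in those comparisons.

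**Figure D1:**
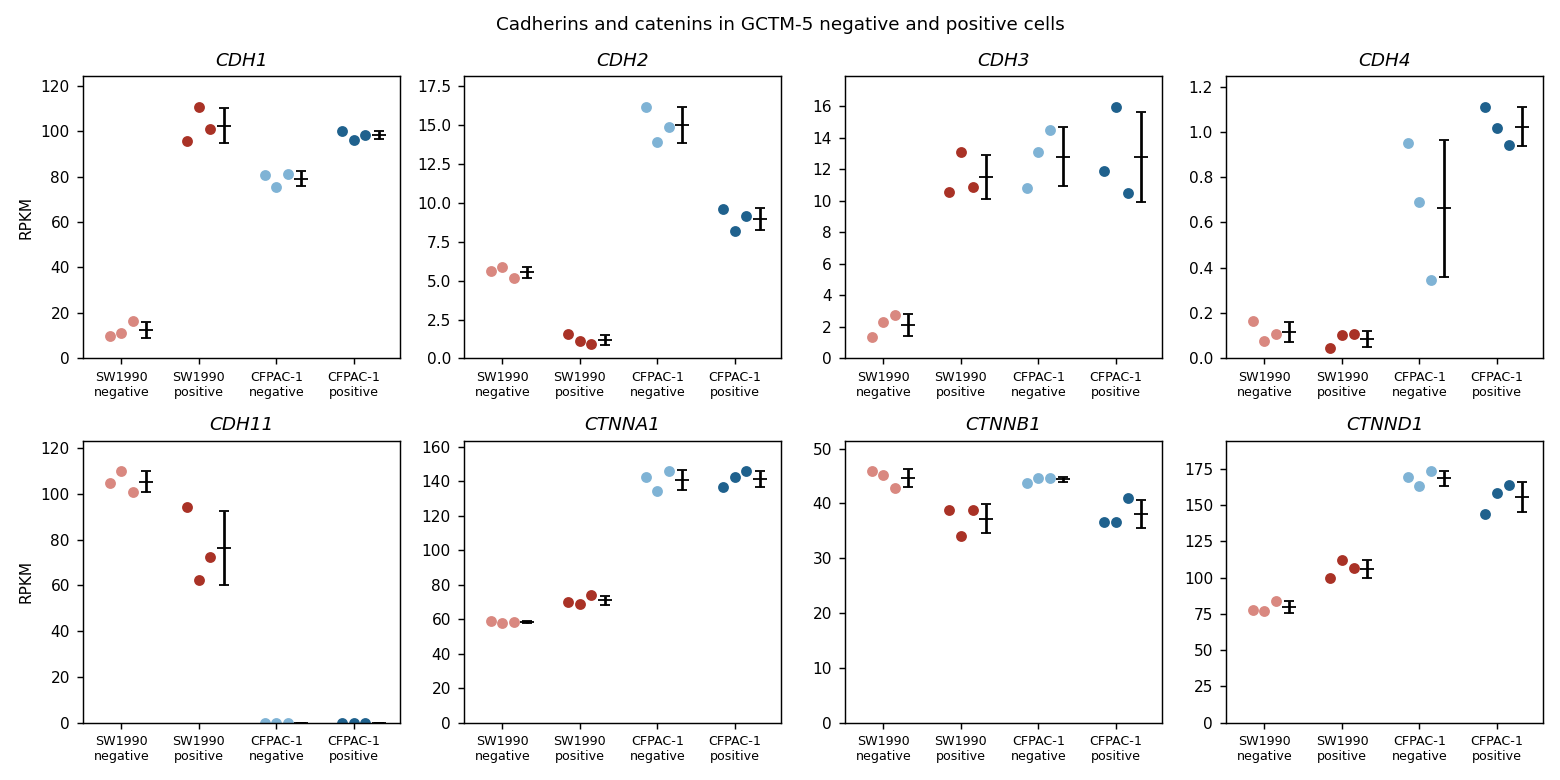
RPKM of each gene (vertical axis, linear from 0, a separate scale per panel) in the 3 samples of each of the 4 groups (horizontal axis). Points are samples, and the dash and bar beside them are the mean and SD. *CDH1* and *CDH3* were low in negative SW1990 alone, *CDH2* was lowest in positive SW1990, and *CDH11* was at 0 in the 6 CFPAC-1 samples.

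E-cadherin was far lower in negative SW1990 cells than in any other group, and its fitted change in that line was the largest of the 8 genes. *CDH1* (GRCh37 chromosome 16, 68771195 to 68869440, plus strand) had 10.1, 11.2 and 16.6 RPKM in the negative SW1990 samples and 95.6, 111 and 101 in the positive ones. In CFPAC-1 it had 80.8, 75.3 and 81.0 RPKM in negative and 100.1, 96.3 and 98.4 in positive cells. Every negative SW1990 sample was below every other sample, and the positive samples of both lines overlapped. The change in SW1990 was 8.23-fold (log2 3.04, SE 0.147, limma adjusted p = 1.58e-07). In CFPAC-1 the positive samples also all lay above the negative ones, but the change of 1.24-fold (log2 0.31, 95% interval -0.01 to 0.63) had an adjusted p of 0.115. That call depended on the spread assumed, since the adjusted p was 0.0135 with CFPAC-1 fitted alone and 0.0117 without negative SW1990 replicate 3, the sample with the highest *CDH1* of its group. The difference between the changes of the lines was 2.73 on the log2 scale (SE 0.208, adjusted p = 7.85e-06). Between lines, negative SW1990 was 6.36-fold below negative CFPAC-1 (adjusted p = 1.54e-08), whereas in positive cells the log2 difference was 0.06 (95% interval -0.26 to 0.38, adjusted p = 0.753). In order of level, negative SW1990 was followed by negative CFPAC-1, positive CFPAC-1 and positive SW1990, and the last 2 groups did not differ beyond their spread.

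P-cadherin, the product of *CDH3*, is found in the basal layers of stratified epithelia and in many carcinomas, and its gene lies next to *CDH1* on chromosome 16 (68670092 to 68761371, plus strand). *CDH3* had 1.38, 2.28 and 2.72 RPKM in negative and 10.5, 13.1 and 10.9 in positive SW1990. It had 10.8, 13.1 and 14.5 RPKM in negative and 11.9, 16.0 and 10.5 in positive CFPAC-1. As with *CDH1*, the negative SW1990 samples lay below all others. The other 3 groups overlapped for *CDH3*, whereas for *CDH1* negative CFPAC-1 was also apart. The rise in SW1990 was 5.38-fold (log2 2.43, SE 0.228, limma adjusted p = 9.51e-06), and the log2 change in CFPAC-1 was -0.02 (95% interval -0.51 to 0.48, adjusted p = 0.973). The changes differed between lines by 2.44 on the log2 scale (adjusted p = 0.000239). Negative SW1990 was 5.96-fold below negative CFPAC-1 (adjusted p = 8.96e-07), and in positive cells the log2 difference of SW1990 from CFPAC-1 was -0.13 (95% interval -0.63 to 0.36, adjusted p = 0.630). Within negative SW1990 the same order of samples held for *CDH3* as for *CDH1*, with replicate 1 lowest and replicate 3 highest.

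N-cadherin moved the other way, and in both lines. *CDH2* (GRCh37 chromosome 18, 25512843 to 25757910, minus strand), the cadherin of neural and mesenchymal cells, had 5.60, 5.87 and 5.17 RPKM in negative and 1.55, 1.09 and 0.905 in positive SW1990. The positive values rested on 70 to 131 reads. In CFPAC-1 it had 16.2, 13.9 and 14.9 RPKM in negative and 9.58, 8.18 and 9.19 in positive cells. No 2 of the 4 groups overlapped, and both CFPAC-1 groups were above both SW1990 groups. Positive cells were 4.50-fold lower in SW1990 (log2 -2.17, SE 0.164, limma adjusted p = 1.63e-06) and 1.66-fold lower in CFPAC-1 (log2 -0.73, SE 0.164, adjusted p = 0.00489). The fall was larger in SW1990, with a log2 difference between the changes of -1.44 (SE 0.231, adjusted p = 0.000865). SW1990 was 2.67-fold below CFPAC-1 in negative cells (adjusted p = 8.81e-06) and 7.23-fold below it in positive cells (adjusted p = 3.36e-08). The ratio of *CDH1* to *CDH2* RPKM, a common summary of the cadherin switch, was 2.31 ± 0.792 (SD, n = 3) in negative and 91.6 ± 26.2 in positive SW1990, against 5.29 ± 0.256 in negative and 11.0 ± 0.696 in positive CFPAC-1. *CDH1* was the higher of the pair in all 12 samples.

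The 250 bases before a transcription start are shown for *CDH2* and *CTNNB1*, because these genes moved the same way. Each gene was called lower in positive cells of both lines, but the calls of *CTNNB1* were close to the threshold. The stretches were taken from RefSeq start sites of GRCh38.p14 and each matched GRCh37 at exactly 1 place, and CG dinucleotides are in capitals.
CDH2 (GRCh37 chr18:25757095-25757344, minus strand): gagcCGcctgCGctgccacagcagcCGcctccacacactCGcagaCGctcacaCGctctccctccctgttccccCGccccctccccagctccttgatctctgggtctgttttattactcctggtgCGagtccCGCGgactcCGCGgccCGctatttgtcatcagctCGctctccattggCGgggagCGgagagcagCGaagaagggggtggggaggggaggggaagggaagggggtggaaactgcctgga
CTNNB1 (GRCh37 chr3:41240746-41240995, plus strand): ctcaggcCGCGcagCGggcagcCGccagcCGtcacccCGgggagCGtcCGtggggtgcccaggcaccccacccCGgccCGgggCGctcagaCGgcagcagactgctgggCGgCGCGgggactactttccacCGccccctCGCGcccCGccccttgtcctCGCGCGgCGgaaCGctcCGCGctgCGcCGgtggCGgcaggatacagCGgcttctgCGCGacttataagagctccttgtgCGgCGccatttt
The *CDH2* stretch was 66.0% G and C with 17 CG dinucleotides and that of *CTNNB1* 74.4% with 34, against medians of 58.0% and 11 over all starts in the table. By the gene positions used here, both printed stretches lie inside their genes. *CDH2*, on the minus strand, begins at 25757910, and *CTNNB1*, on the plus strand, begins at 41236232. The other *CDH2* start in the table lies further inside the gene. The 250 bases before that start (GRCh37 25616606 to 25616855) were below both medians, with 42.0% and 4. RefSeq windows of 300 bases (250 before and 50 from the start) were at hand for 4 of the 8 genes, *CDH2*, *CDH4*, *CTNNA1* and *CTNNB1*, with 9 starts among them. Zinc finger repressors such as the ZEB proteins bind the E-box CAGGTG, whose reverse strand reads CACCTG. These letters were found on either strand in 1 of the 9 windows, a *CDH4* start on GRCh37 chromosome 20 (window 60074227 to 60074526, plus strand), and in 20.6% of all 35116 windows. This *CDH4* start and the other one at hand both lie inside the gene, which begins at 59827317. The match, in capitals, begins 16 bases before the transcription start of its window.
CDH4 E-box: gactggggtgCAGGTGtgcctggttc

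R-cadherin (*CDH4*), a close relative of N-cadherin from retina and kidney, was the lowest of the 8 genes in SW1990, where few of its reads were counted, and the lowest with any reads in CFPAC-1. *CDH4* (GRCh37 chromosome 20, 59827317 to 60515673, plus strand) had 0.164, 0.076 and 0.108 RPKM in negative and 0.045, 0.104 and 0.108 in positive SW1990, from 6 to 23 reads a library. In CFPAC-1 it had 0.950, 0.691 and 0.346 RPKM in negative and 1.11, 1.02 and 0.942 in positive cells, from 47 to 198 reads. Positive and negative samples overlapped in both lines, and every CFPAC-1 sample was above every SW1990 sample. The log2 change was -0.22 in SW1990 (95% interval -0.91 to 0.48, limma adjusted p = 0.672) and 0.64 in CFPAC-1 (95% interval -0.05 to 1.34, adjusted p = 0.136). SW1990 was 3.37-fold below CFPAC-1 in negative cells (adjusted p = 0.000361) and 6.12-fold below it in positive cells (adjusted p = 1.94e-05).

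Cadherin-11 separated the lines. *CDH11* (GRCh37 chromosome 16, 64977656 to 65160015, minus strand), a type II cadherin known from osteoblasts and other mesenchymal cells, had 105, 110 and 101 RPKM in negative and 94.1, 62.3 and 72.6 in positive SW1990, from 3857 to 9342 reads a library. Not 1 read was counted in any of the 6 CFPAC-1 libraries. Against a floor of 3 reads per library, *CDH11* was at least 2608-fold higher in negative and at least 1452-fold higher in positive SW1990 than in the same cells of CFPAC-1. In SW1990 the highest positive sample, replicate 1, was still under the lowest negative one. The fall was 1.40-fold (log2 -0.48, SE 0.152, limma adjusted p = 0.0321), but the shared estimate of spread included the CFPAC-1 samples at 0. With SW1990 fitted alone the adjusted p was 0.0736, and it was above 0.05 without negative replicate 1 (0.0860), negative replicate 2 (0.105), negative replicate 3 (0.0764), positive replicate 2 (0.151) or positive replicate 3 (0.112). A difference between lines cannot be read for a gene at 0 in CFPAC-1. Its fitted value was -0.48 (adjusted p = 0.118, and 0.0358 without positive SW1990 replicate 1).

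**Figure D2:**
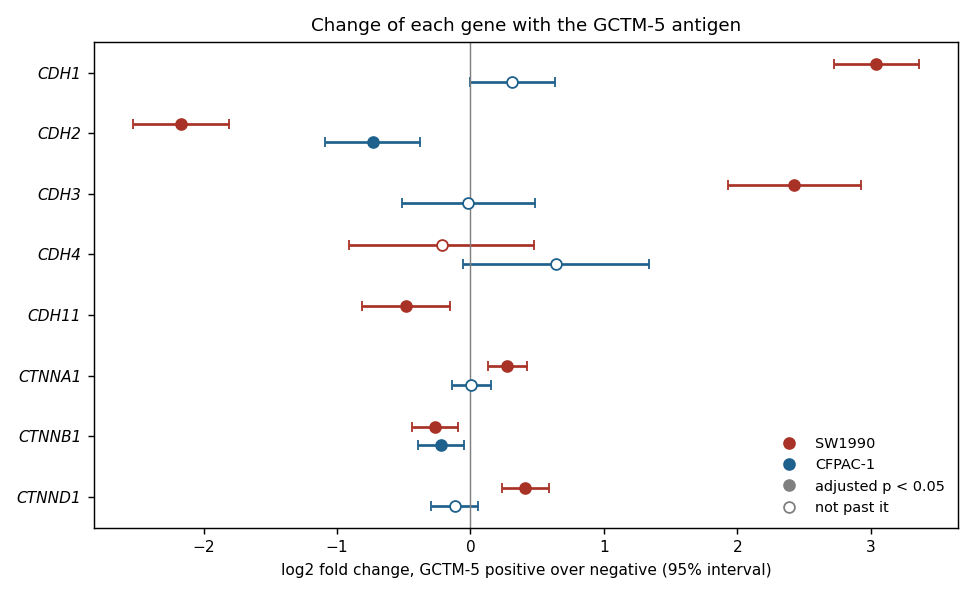
Fitted log2 fold change (horizontal axis) of each gene, GCTM-5 positive over negative cells, with its 95% interval (bars), in SW1990 (red) and CFPAC-1 (blue). Filled points had an adjusted p under 0.05. *CDH1* and *CDH3* rose and *CDH2* fell by more than 2 log2 units in SW1990, whereas the catenins moved by less than 0.5, and *CDH11* has no CFPAC-1 point because it was at 0 there.

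RPKM is per length, so levels of the 5 cadherins can be set side by side within a sample. In negative SW1990 cells *CDH11* made up 83.8% ± 2.96 (SD, n = 3) of their summed RPKM, *CDH1* 10.0% ± 2.78, *CDH2* 4.41% ± 0.262 and *CDH3* 1.69% ± 0.525. In positive SW1990 cells *CDH1* made up 53.6% ± 5.91, *CDH11* 39.7% ± 6.69, *CDH3* 6.03% ± 0.895 and *CDH2* 0.612% ± 0.141. The leading cadherin transcript was therefore *CDH11* in all 3 negative samples and *CDH1* in all 3 positive ones, and the ratio of *CDH1* to *CDH11* went from 0.121 ± 0.0381 to 1.39 ± 0.381. In positive replicate 1 the ratio was 1.02, and that sample had the highest *CDH11* and *CDH2* and the lowest *CDH1* and *CDH3* of its group. *CDH1* led in both CFPAC-1 groups, at 73.5% ± 0.662 in negative and 81.2% ± 1.74 in positive cells, where *CDH2* went from 13.9% ± 0.823 to 7.42% ± 0.594 and *CDH3* from 11.9% ± 1.72 to 10.5% ± 2.30. The summed RPKM of the 5 cadherins was 126 ± 3.70 in negative and 192 ± 8.998 in positive SW1990, and 107 ± 4.03 and 121 ± 1.88 in CFPAC-1. Negative SW1990 replicate 3 was the reverse of positive SW1990 replicate 1, with the highest *CDH1* and *CDH3* and the lowest *CDH2* and *CDH11* of its group. These shares are descriptions with no test.

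**Figure D3:**
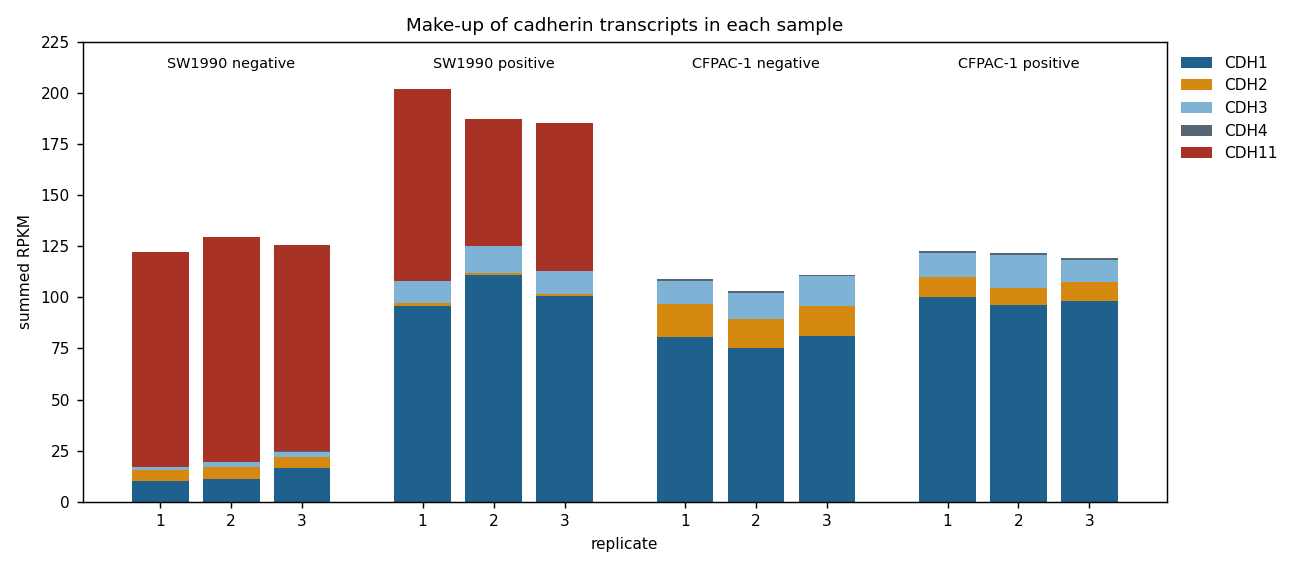
Summed RPKM of the 5 cadherins (vertical axis, from 0) in each of the 12 samples, with each bar divided by gene. *CDH11* fills most of the bar in negative SW1990 and is missing from CFPAC-1, *CDH1* is the largest part in the other 3 groups, and *CDH4* is too low to see in most bars.

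All 3 catenins were called in SW1990, against 28.2% of all fitted genes, with changes of 1.20- to 1.33-fold. *CTNNA1* (GRCh37 chromosome 5, 137946656 to 138270723, plus strand) had 59.1, 57.8 and 58.4 RPKM in negative and 69.9, 68.8 and 73.8 in positive SW1990. It had 142, 134 and 146 RPKM in negative and 137, 142 and 146 in positive CFPAC-1. The positive and negative samples of SW1990 did not overlap and those of CFPAC-1 did. The rise in SW1990 was 1.21-fold (log2 0.28, SE 0.0680, limma adjusted p = 0.00930), and the log2 change in CFPAC-1 was 0.01 (95% interval -0.14 to 0.16, adjusted p = 0.955). The difference between those changes, 0.27, had an adjusted p of 0.0570, which was 0.0290 without positive CFPAC-1 replicate 3 and 0.0141 with each sample centred on its median. SW1990 was 2.41-fold below CFPAC-1 in negative cells (adjusted p = 1.25e-08) and 2.00-fold below it in positive cells (adjusted p = 1.46e-07). The antisense gene *LRRTM2* inside *CTNNA1* had 0 to 16 reads in each library.

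*CTNNB1* (GRCh37 chromosome 3, 41236232 to 41301587, plus strand) was at nearly the same level in both lines. It had 45.9, 45.1 and 42.8 RPKM in negative and 38.7, 34.1 and 38.8 in positive SW1990, and 43.8, 44.7 and 44.7 in negative and 36.6, 36.6 and 41.0 in positive CFPAC-1. Positive samples were below negative ones in each line without overlap. The fall was 1.20-fold in SW1990 (log2 -0.26, SE 0.0789, limma adjusted p = 0.0263) and 1.17-fold in CFPAC-1 (log2 -0.22, SE 0.0789, adjusted p = 0.0436). Both calls were close to the threshold. In SW1990 the adjusted p was 0.0774 without negative replicate 1, 0.0677 without negative replicate 2, 0.106 without positive replicate 2, and 0.0856 with each sample centred on its median. In CFPAC-1 it was 0.0829, 0.108 and 0.109 without negative replicates 1, 2 and 3, 0.126 and 0.108 without positive replicates 1 and 2, and 0.0527, 0.0542 and 0.0569 without SW1990 negative replicate 1, negative replicate 2 or positive replicate 3. With a replicate block the adjusted p was 0.0537 in SW1990 and 0.0741 in CFPAC-1, and with eBayes without a trend 0.0540 and 0.0782. The changes of the lines differed by -0.04 on the log2 scale (95% interval -0.28 to 0.20, adjusted p = 0.830). SW1990 and CFPAC-1 differed by a log2 value of 0.01 in negative cells (95% interval -0.17 to 0.18, adjusted p = 0.946) and of -0.03 in positive cells (95% interval -0.20 to 0.14, adjusted p = 0.741). The antisense gene *ULK4*, which overlaps *CTNNB1*, had 2 to 15 reads.

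*CTNND1* (GRCh37 chromosome 11, 57520715 to 57587018, plus strand) encodes p120-catenin, which keeps cadherins at the cell surface. It had 77.8, 77.2 and 84.2 RPKM in negative and 99.9, 112 and 106 in positive SW1990, and 169, 163 and 173 in negative and 144, 159 and 164 in positive CFPAC-1. The SW1990 groups were apart, the CFPAC-1 groups overlapped, and all CFPAC-1 samples were above all SW1990 samples. The rise in SW1990 was 1.33-fold (log2 0.41, SE 0.0800, limma adjusted p = 0.00211), the log2 change in CFPAC-1 was -0.12 (95% interval -0.29 to 0.06, adjusted p = 0.274), and the difference of 0.53 between them was called (adjusted p = 0.00482). SW1990 was 2.11-fold below CFPAC-1 in negative cells (adjusted p = 1.89e-07) and 1.46-fold below it in positive cells (adjusted p = 8.29e-05). The readthrough gene *TMX2-CTNND1* is listed separately, and it had between 99.0% and 101% of the reads of *CTNND1* in each library, so both entries carry essentially the same reads and count as 1 measurement.

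Set against *CTNNB1*, whose log2 values spanned the least of the 8 genes over the 12 samples (0.43), the summed cadherins stood at a ratio of 2.82 ± 0.144 (SD, n = 3) in negative and 5.16 ± 0.363 in positive SW1990, and of 2.42 ± 0.102 and 3.19 ± 0.249 in CFPAC-1. The ratio of *CTNNA1* to *CTNNB1* was 1.31 ± 0.0466 and 1.91 ± 0.108 in SW1990 and 3.17 ± 0.144 and 3.73 ± 0.164 in CFPAC-1. The ratio of *CTNND1* to *CTNNB1* was 1.79 ± 0.152 and 2.87 ± 0.375 in SW1990 and 3.80 ± 0.130 and 4.09 ± 0.208 in CFPAC-1. Samples of positive and negative cells did not overlap for any of these ratios, and both catenin ratios were higher in CFPAC-1 than in the same cells of SW1990 in every sample. No test was run on the ratios. *CTNNB1* was itself called lower in positive cells of both lines, and a lower *CTNNB1* raises each ratio. In CFPAC-1 neither *CTNNA1* (log2 change 0.01) nor *CTNND1* (-0.12) was called, and their positive and negative samples overlapped. Coefficients of variation between samples of a group were 1.1% to 7.3% for the catenins, 1.9% to 27.8% for *CDH1* and 8.3% to 45.7% for *CDH4*.

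A further 72 genes of the adherens junction and of β-catenin signalling, in 6 lists by role, were read from the same fit, and 57 of them passed the filter. In SW1990, 17 were called higher and 11 lower in positive cells, against 11.3% and 16.9% of all fitted genes. In CFPAC-1, 6 were called higher and 11 lower, against 22.3% and 14.2%. With both directions counted together, the share of list genes called was above that of all genes in SW1990 (28.2%) and below it in CFPAC-1 (36.5%). The median log2 change over all fitted genes was -0.04 in SW1990 and 0.05 in CFPAC-1. Beside these, the list medians in SW1990 and CFPAC-1 were -0.76 and 0.04 for the 5 fitted genes of other cadherins, 0.78 and -0.03 for the 4 catenin relatives, and 0.36 and -0.05 for the 6 nectins and afadin. They were 0.31 and -0.10 for the 11 actin linkers, -0.07 and -0.22 for the 13 genes of cadherin turnover, and -0.08 and -0.13 for the 18 genes of the β-catenin pathway. The medians of other cadherins were the single values of *CDH6* in SW1990 and of *CDH5* in CFPAC-1. *CDH6* had at most 16 reads in an SW1990 library and *CDH5* at most 1 in a CFPAC-1 library. Both genes passed the filter through the other line, so these medians describe no trend of the list.

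**Figure D4:**
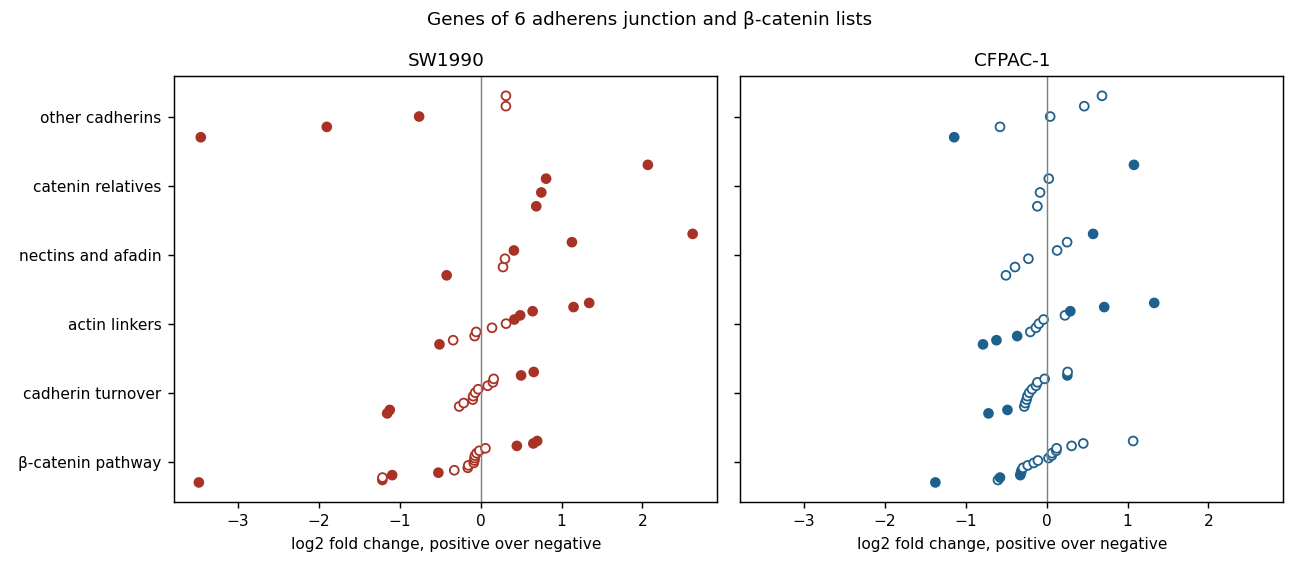
Fitted log2 fold change (horizontal axis), GCTM-5 positive over negative cells, of each fitted gene in 6 lists (rows) in SW1990 (left) and CFPAC-1 (right). Each point is 1 gene, and filled points had an adjusted p under 0.05. The 4 catenin relatives all lie to the right in SW1990, where the lowest points are *CDH5* among other cadherins and *AXIN2* in the β-catenin list.

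Of 17 other cadherins, 12 were below the filter, and *CDH7*, *CDH8* and *CDH19* among them were at 0 in all samples. In SW1990, 3 of the 5 fitted were called lower in positive cells and none higher, and in CFPAC-1 1 was called lower, against 16.9% and 14.2% of all genes called lower. VE-cadherin (*CDH5*), best known from endothelium, had 15.6 ± 1.82 RPKM (SD, n = 3) in negative and 1.33 ± 0.255 in positive SW1990, a fall of 11.0-fold (limma adjusted p = 2.52e-07), and 0 to 1 read in any CFPAC-1 library. Of the other endothelial markers in SW1990, *PECAM1* was at 0.481 to 0.889 RPKM in negative and 0.232 to 0.490 in positive cells. *VWF* was at 0.171 to 0.256 in negative and 0.0575 to 0.0817 in positive cells, and *TEK* at 0.0594 to 0.181 and at 0. *KDR* was at 0 in negative and at most 0.0195 in positive SW1990. *CDH15*, the cadherin of muscle, fell from 2.86 ± 0.847 to 0.687 ± 0.194 RPKM in SW1990 (adjusted p = 0.00160). *CDH6*, a type II cadherin of kidney, was mainly found in CFPAC-1, with 28.1 ± 1.90 RPKM in negative and 12.8 ± 2.72 in positive cells, a fall of 2.21-fold (adjusted p = 0.000549). In SW1990 the libraries of negative cells held 10 to 16 reads of *CDH6* and those of positive cells 0 to 2, at least 3.96-fold lower against the floor of 3 reads per library. In SW1990 the adjusted p of *CDH15* was 0.101 with a pseudocount of 0.01, and that of *CDH6* (0.00660) was 0.624 with a pseudocount of 1. Thus 2 type II cadherins, *CDH11* and *CDH5*, were found in SW1990 with next to no reads in CFPAC-1, and *CDH6* was found almost only in CFPAC-1.

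All 4 fitted relatives of the catenins were called higher in positive SW1990 cells (11.3% of all genes) and 1 in CFPAC-1 (22.3%). Plakoglobin (*JUP*), a β-catenin relative of adherens junctions and desmosomes, rose from 46.2 ± 7.41 to 193 ± 21.9 RPKM (4.19-fold, limma adjusted p = 2.52e-07). It had 246 ± 2.26 RPKM in negative and 251 ± 19.2 in positive CFPAC-1, a log2 change of 0.02 that differed from that of SW1990 by 2.04 (adjusted p = 1.01e-05). *PKP4*, a p120 relative, rose from 19.6 ± 1.29 to 34.4 ± 1.23 RPKM in SW1990 (1.75-fold, adjusted p = 0.000221). *CTNNAL1*, an α-catenin relative, rose in both lines, from 8.55 ± 1.30 to 14.5 ± 2.62 RPKM in SW1990 (adjusted p = 0.00287) and from 9.18 ± 1.15 to 19.4 ± 0.534 in CFPAC-1 (2.11-fold, adjusted p = 0.000326).

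Nectins are immunoglobulin-like adhesion proteins that recruit cadherins to nascent contacts through afadin. In SW1990, 3 of the 6 genes rose and 1 fell, and in CFPAC-1 1 rose, against 28.2% and 36.5% of all genes called in either direction. Nectin-4 (*PVRL4*) went from 0.841 ± 0.215 to 6.08 ± 2.95 RPKM in SW1990 (6.15-fold, limma adjusted p = 7.70e-05) and was at 16.8 ± 1.58 and 12.1 ± 4.01 in negative and positive CFPAC-1, and the changes differed between lines by 3.13 on the log2 scale. Afadin (*MLLT4*) rose from 6.45 ± 0.897 to 14.1 ± 0.787 RPKM in SW1990 (2.19-fold, adjusted p = 3.27e-05). *PVR*, the poliovirus receptor, rose in CFPAC-1 from 49.5 ± 6.42 to 74.0 ± 12.3 RPKM (adjusted p = 0.00712). In SW1990 *PVR* was called higher (log2 0.41, adjusted p = 0.0425) and nectin-3 (*PVRL3*) lower (log2 -0.42, adjusted p = 0.0231).

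Among proteins that link the junction to the cytoskeleton, 5 of 11 genes rose and 1 fell in SW1990, and 3 rose and 3 fell in CFPAC-1, where all genes were called at 28.2% and 36.5%. *CAMSAP3*, which anchors microtubules at the zonula adherens, rose from 3.21 ± 0.591 to 8.20 ± 0.561 RPKM in SW1990 (2.54-fold, limma adjusted p = 0.000128) and had 2.63 ± 0.320 and 2.47 ± 0.479 in CFPAC-1. *LIMA1*, an α-catenin and actin binding protein, rose from 31.1 ± 1.81 to 69.9 ± 13.6 RPKM in SW1990 (2.22-fold, adjusted p = 2.68e-05). *AJUBA*, an α-catenin binding LIM protein, rose in both lines, by 1.40-fold in SW1990 (adjusted p = 0.00459) and 1.64-fold in CFPAC-1 (adjusted p = 0.000466). In CFPAC-1 *LPP*, a LIM protein of cell contacts, fell from 28.2 ± 4.25 to 16.4 ± 3.35 RPKM (adjusted p = 0.00152). *PLEKHA7*, a p120 binding protein, was called lower in SW1990 (log2 -0.51, adjusted p = 0.0143).

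Of 13 genes for the removal, shedding and dephosphorylation of cadherins, 2 rose and 2 fell in SW1990, and 1 rose and 2 fell in CFPAC-1. These shares were near the 28.2% of all genes called in SW1990 and below the 36.5% in CFPAC-1. *ADAM10*, the protease that sheds the ectodomain of E- and N-cadherin, rose from 21.2 ± 2.01 to 29.9 ± 0.807 RPKM in SW1990 (1.41-fold, limma adjusted p = 0.00151). *NUMBL*, an endocytic adaptor, fell 2.18-fold (adjusted p = 0.000221) and *PTPRM*, a receptor phosphatase that binds cadherins, fell 2.23-fold (adjusted p = 0.000803) in that line. In CFPAC-1, the adaptor *NUMB* fell from 93.2 ± 0.858 to 56.8 ± 6.88 RPKM (adjusted p = 0.000186). The protease *ADAM15* was called higher in SW1990 (log2 0.66, adjusted p = 0.0203), and the phosphatase *PTPN1* in CFPAC-1 (log2 0.25, adjusted p = 0.0208).

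In the β-catenin list, 3 of 18 genes rose and 4 fell in SW1990, where 11.3% of all genes were called higher and 16.9% lower. In CFPAC-1 none rose and 5 fell, where 22.3% of all genes were called higher and 14.2% lower. With both directions together, 28.2% and 36.5% of all genes were called in the 2 lines. *AXIN2*, a target of β-catenin and TCF that also takes part in β-catenin destruction, fell in both lines. It went from 1.94 ± 0.237 to 0.0833 ± 0.0291 RPKM in SW1990 (11.2-fold lower, limma adjusted p = 8.33e-07), where positive libraries held 4 to 8 reads, and from 0.599 ± 0.0489 to 0.174 ± 0.0643 in CFPAC-1 (2.60-fold lower, adjusted p = 0.00109). The fall was larger in SW1990, with a log2 difference between the changes of -2.11 (adjusted p = 0.000830). *CTNNBIP1*, an inhibitor of β-catenin binding to TCF, rose from 13.9 ± 1.27 to 22.7 ± 3.11 RPKM in SW1990 (adjusted p = 0.000439) and had 33.3 ± 2.32 and 33.8 ± 0.632 in CFPAC-1. *TCF7L2*, a TCF factor, fell in CFPAC-1 from 21.3 ± 0.829 to 14.3 ± 1.92 RPKM (adjusted p = 0.00979). Of other TCF and LEF factors, *LEF1* was called lower in SW1990 (log2 -1.22, adjusted p = 0.0121, from 2 to 21 reads a library) and *TCF7* higher (log2 0.65, adjusted p = 0.0175).

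Leaving out 1 library ended some of these calls. In SW1990 the limma adjusted p of *PVR* was 0.115, 0.153, 0.131 and 0.103 without negative replicates 2 and 3 and positive replicates 1 and 3, and 0.0552, 0.0545 and 0.0510 without CFPAC-1 negative replicates 2 and 3 and positive replicate 1. That of *PVRL3* was 0.0503 and 0.0741 without negative replicates 1 and 2 and 0.0934 and 0.0653 without positive replicates 2 and 3. For *PLEKHA7* it was 0.0599, 0.0575 and 0.0501 without negative replicates 1 and 3 and positive replicate 3, and for *ADAM15* 0.0552, 0.0680, 0.0659 and 0.0764 without negative replicates 2 and 3 and positive replicates 1 and 3. For *TCF7* it was 0.0719, 0.0738 and 0.0587 without negative replicate 3 and positive replicates 1 and 2, and for *LEF1* 0.0531 without positive replicate 3. *PDLIM7*, called lower in CFPAC-1 (log2 -0.62, adjusted p = 0.0439), lost its call without any library other than SW1990 negative replicate 1, SW1990 positive replicates 1 and 2 or CFPAC-1 positive replicate 3 (8 of 12, adjusted p up to 0.159). For *PTPN1* in CFPAC-1 the adjusted p was 0.0632, 0.0659 and 0.0671 without negative replicates 2 and 3 and positive replicate 1. Scaling moved *PTPN1* further, to a log2 change of 0.15 with each sample centred on its median (adjusted p = 0.171) and 0.14 with quantile normalization (adjusted p = 0.170). *PVRL3* in SW1990 had an adjusted p of 0.0530 after centring. With the line fitted alone it was 0.0697 for *PLEKHA7* and 0.0750 for *TCF7* in SW1990 and 0.143 for *PDLIM7* in CFPAC-1. For *LEF1* it was 0.151 with a pseudocount of 0.01 and 0.0680 with quantile normalization.

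For the 5 cadherins, whose log2 values spanned at least 2 over the 12 samples, the nearest profiles were sought among the 13267 genes that averaged 1 RPKM or more, by the root mean square difference of centred log2 values over the 12 samples. The nearest to *CDH1* were *MAL2* (0.129), *MAP7* (0.186) and *PROM2* (0.208). *MAL2*, an apical transport protein, had 64.8, 531, 389 and 484 RPKM in negative and positive SW1990 and negative and positive CFPAC-1. The nearest to *CDH3* were *TC2N* (0.185), *PRRG4* (0.222) and the junction gene *JUP* (0.232). *CDH2* was followed at a greater distance by *SMAD7* (0.294), *ITGB8* (0.332) and *SV2A* (0.374), and *CDH4* by *TNFAIP8* (0.272), *TRIB3* (0.334) and *C9orf85* (0.341). No gene was close to *CDH11*, for which the distances were 0.500 for *LOC100505817*, 0.651 for *CALB1* and 0.734 for *SPON1*, all of them abundant in SW1990 and near 0 in CFPAC-1. The 12 samples fall into 4 groups, so these distances mostly describe group levels.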

How the data were processed

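RNA-seq was made from 12 samples, 3 of each of 4 groups given by the sample labels (line and GCTM-5 staining). The authors aligned reads to hg19 (GRCh37), quantified genes with QuasR and deposited RPKM values. Its version, the gene annotation, and how strand and multiply mapping reads were treated are not given in the sources used here. The paper names a TruSeq kit and the labels a strand-specific SureSelect kit, both on polyadenylated RNA.

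Library totals and whole reads were recovered from the RPKM values, using the known lengths of single-exon genes, and whole reads were found to within 0.01 of a read for all 19654 genes above 0. Genes that averaged 0.1 RPKM or more were fitted as log2(RPKM + 0.1) with limma 3.58.1 in R 4.3.3 (lmFit, contrasts.fit, eBayes with an intensity trend). All 12 samples entered with 4 group means, and tests were 2-sided. The study's tool for differential expression, TCC, was not used: the deposited values are RPKM, and the recovered reads entered only as an alternative (voom). The fit was also run on simulated counts with the same spread set for every gene, and no outcome of that run is used here. Tables and plots were made with Python 3.11.15, pandas 2.3.3 and matplotlib 3.10.9. Replicate libraries of a group differed beyond sampling noise, so each counted as 1 sample. The 95% intervals are those of the fit and are not adjusted for the number of genes.

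The 8 genes and the lists were chosen with earlier results of these data known. Named were all 8 genes and, from each list, up to 2 genes with the largest and 2 with the smallest called change in each line, plus the 3 nearest profiles. Of the list genes this rule names, 2 are not reported here. Counts of calls cover whole lists. Gene positions are those of GENCODE 44 mapped to GRCh37. Alternatives were other pseudocounts, filters and scalings, each line fitted alone, a replicate block, no trend, voom on recovered reads, the study's criterion (over 2-fold with p under 0.01) and each sample left out.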

Additional observations from a re-analysis of the deposited data

Results flagged for a closer look

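The change from negative to positive cells differed between SW1990 and CFPAC-1, by limma's test of that difference itself (adjusted p under 0.05), for 4 of the 8 cadherins and catenins and for list genes, of which 57 were fitted, 14 with a higher and 6 with a lower change in SW1990, against 26.9% of all genes. Given here are the 4 and the 15 list genes named for their called changes, a choice that favours large differences. Values are the log2 change in SW1990 minus that in CFPAC-1. The difference was 2.73 for *CDH1*, 2.44 for *CDH3*, 0.53 for *CTNND1* and -1.44 for *CDH2*. Among junction genes it was 3.13 for *PVRL4*, 2.04 for *JUP*, 1.44 for *CAMSAP3*, 1.00 for *MLLT4*, 0.94 for *PDLIM7*, 0.92 for *LIMA1*, 0.89 for *PKP4* and -0.67 for *PVRL3*. For *CDH5* it was -3.50, but with 0 to 1 read in CFPAC-1 libraries this cannot be read as a difference between lines. Among genes of turnover and of the β-catenin pathway it was 0.74 for *ADAM10*, 0.68 for *CTNNBIP1*, 0.63 for *NUMB*, -0.85 for *NUMBL*, -0.97 for *PTPRM* and -2.11 for *AXIN2*. The test of *PDLIM7* lost its call without any library other than SW1990 negative replicate 1, SW1990 positive replicate 2 or CFPAC-1 positive replicate 3 (9 of 12, adjusted p up to 0.0935) and that of *PTPRM* without CFPAC-1 negative replicate 2 (0.0586) or 3 (0.0502). With a pseudocount of 1 the difference of *PTPRM* was -0.32 (adjusted p = 0.119) and with quantile normalization -0.61 (adjusted p = 0.103). That of *PVRL3* was -0.52 (adjusted p = 0.0584) with each sample centred on its median.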

How the results depend on the processing

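The calls of *CDH1*, *CDH2* and *CDH3* in SW1990 and of their differences between lines, of *CTNND1* in SW1990 and of *CDH2* in CFPAC-1 held at an adjusted p under 0.05 in every refit. Under the study's criterion, 3 of the 8 genes were called in SW1990, 0 in CFPAC-1 (limma gave 2 at an unadjusted p under 0.05) and 3 between lines in positive cells, and 12 list genes were called in SW1990 and 4 in CFPAC-1. Same-numbered samples of a line deviated from their group means with correlations of 0.185, 0.016 and 0.116 in SW1990 and -0.020, 0.001 and -0.059 in CFPAC-1, so the numbers were not taken to pair them. With the replicate block, 5 of the 8 genes were called in SW1990 and 1 in CFPAC-1, where eBayes without a trend also called 1. The block ended the calls of *CDH11* (limma adjusted p = 0.0632) and *CTNNB1* (0.0537) in SW1990 and of *CTNNB1* in CFPAC-1 (0.0741). With 1 sample left out, 1 to 3 were called in CFPAC-1, and 11 (without CFPAC-1 negative replicate 3) to 24 (without CFPAC-1 positive replicate 3) list genes. Shares of all genes called were not worked out for these alternatives. Their counts therefore cannot be set against a background and show only how the calls moved.

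Directions turned only for values that were not called. Centring each sample on its median, which moved the median change of all genes in CFPAC-1 from 0.05 to -0.05, gave log2 values of 0.11 for the difference of *CTNNB1* between lines, -0.18 for *CTNNB1* between lines in negative cells and -0.093 for *CTNNA1* in CFPAC-1. Quantile normalization gave 0.026, -0.091 and -0.025 for these and 0.080 for *CDH4* in SW1990 (-0.22 as reported), and voom gave 0.0015 for *CDH3* in CFPAC-1. With 1 sample left out, *CTNNB1* ran from -0.071 to 0.022 for the difference, -0.014 to 0.036 between lines in negative and -0.064 to 0.029 in positive cells. In the same way *CDH1* ran from -0.0005 to 0.11 and *CDH3* from -0.26 to 0.038 between lines in positive cells, and *CDH3* from -0.19 to 0.11 and *CTNNA1* from -0.026 to 0.033 in CFPAC-1. The cause was not tested. Depth limits *CDH4* in SW1990 and genes with a few reads.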
